A study of Mus musculus with 24 samples.

Results

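The CC chemokines Ccl2, Ccl5, Ccl7, Ccl8 and Ccl20 and the CX3C chemokine Cx3cl1 were examined in retinal endothelial cells of the mouse. These 6 genes, of 18193 measured, were chosen by symbol: every probe set that the array's annotation assigns to one of them was taken, 9 probe sets in all. Cx3cl1 has 4 probe sets and each of the others has 1. The 24 arrays fall into 8 groups of 3.

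All groups used lines from adult mice of mixed gender and a C57Bl6/129 mixed background. The animals carried the Immorto transgene, a temperature-sensitive SV40 large T-antigen under the interferon-responsive H2Kb promoter, in both genotypes. Lines were either wild type or Fz4-/-, lacking the receptor frizzled-4, and were passaged at a lower temperature with interferon gamma on gelatin. RNA was taken at 37 °C without interferon gamma. Either genotype was grown on gelatin-coated plates. For Matrigel, which is a gel of basement membrane proteins, cells were starved for 24 hours in 1% serum and then plated on it for 6 hours. Both were also grown with control HEK293 cells, a human embryonic kidney line, or with HEK293 cells that stably express Norrin, a secreted ligand of frizzled-4. Co-culture RNA was about an even mixture of mouse and human RNA, so the mouse probe sets there could also bind human transcripts. The labels do not say whether the 3 replicates of a group are separate cultures, lines or animals, so p-values here speak of the spread among the arrays, which may be technical.

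Chemokines are small secreted proteins that draw leukocytes along a gradient by binding G protein-coupled receptors. Ccl2 and Ccl7 attract monocytes mainly through Ccr2 and related receptors. Ccl5 attracts T cells and monocytes, and Ccl20 attracts cells that carry Ccr6. Cx3cl1 (fractalkine) is made as a membrane protein with a chemokine domain on a stalk, binds Cx3cr1, and is shed by Adam10 and Adam17. Endothelial cells make several of these under inflammatory signals that act through NF-kB and interferon regulatory factors. Ccl2, Ccl7, Ccl11, Ccl12, Ccl8 and Ccl1 lie next to each other in that order on mouse chromosome 11.

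RefSeq's promoter table on GRCm38.p6 held 3 of the 6 members. The 100 bases before the start are shown for these 3, as the others had no entry. With Norrin-expressing cells Ccl8 and Ccl20 took different courses and Cx3cl1 yet another, and any link to the sequences was not tested. All lie on the plus strand, Ccl8 at chr11:82115085-82115184, Ccl20 at chr1:83116666-83116765 and Cx3cl1 at chr8:94772080-94772179. Capitals mark the single motif match.
Ccl8: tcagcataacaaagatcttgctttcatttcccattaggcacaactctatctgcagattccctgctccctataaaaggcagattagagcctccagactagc
Ccl20: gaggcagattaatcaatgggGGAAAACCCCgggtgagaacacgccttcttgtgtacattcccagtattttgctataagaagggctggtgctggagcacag
Cx3cl1: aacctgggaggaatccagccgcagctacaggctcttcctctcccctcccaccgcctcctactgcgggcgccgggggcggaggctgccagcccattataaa

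Both strands from 250 bases before to 50 bases after the start were searched for the RELA consensus of NF-kB, the interferon response motif (GAAA, 2 bases of any kind, GAAA) and the AP-1 motif TGANTCA. The match in Ccl20 is to the RELA consensus, on the minus strand, from base -80 to base -71, and overlaps no other match. Of 32851 promoters of that length, 4.51% hold the RELA consensus, 3.44% the interferon motif and 7.81% the AP-1 motif. No letters of these motifs were found in the windows of Ccl8 and Cx3cl1.

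Fzd4, the gene deleted in Fz4-/- mice, was read first as a check on the labels. It lay between 8.44 and 9.09 log2 in wild type and between 4.61 and 5.50 in Fz4-/- cells on gelatin, and every Fz4-/- array was below every wild type array of the same culture. Ndp, which encodes mouse Norrin, lay between 2.02 and 3.35 in all 24 arrays. Endothelial markers were high in all single cultures: the array mean over Cdh5, Pecam1 and 8 others ran from 10.51 to 11.24. Of 8 macrophage and microglia markers, Ptprc, Adgre1, Aif1 and Itgam had group means from 2.15 to 3.83 over the 8 groups. Those of Cx3cr1 ran from 3.53 to 4.0, Fcgr1 from 4.26 to 4.97, Csf1r, the receptor for a macrophage growth factor, from 4.59 to 6.02, and Cd68 from 3.53 to 9.56. The arrays fall into 3 sets by their distribution, with medians of 5.02 to 5.11 in the 12 single cultures, 3.44 to 3.52 in the 6 wild type co-cultures and 3.21 to 3.31 in the 6 Fz4-/- co-cultures. Genotype and array set cannot be told apart in co-culture, so genotypes there are given as levels with no test.

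**Figure D1:**
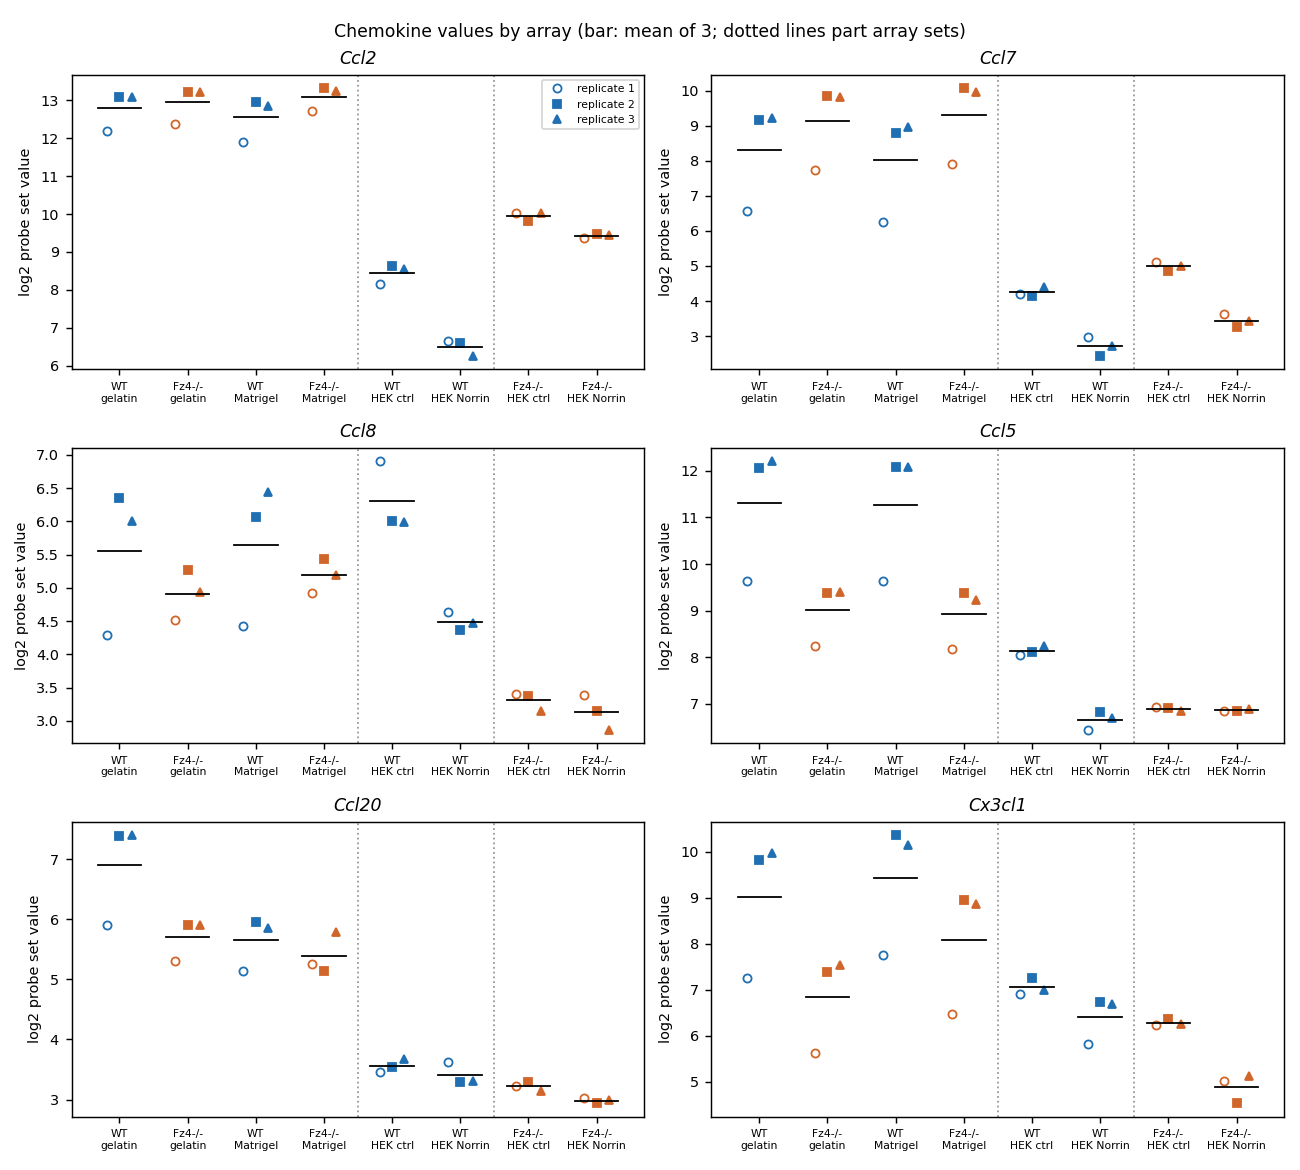
Log2 probe set values of the 6 chemokines on each of 24 arrays (symbols, replicates 1 to 3; open circles, replicate 1), in 8 groups of wild type (WT, blue) and Fz4-/- (orange) cells, with the group mean as a bar; dotted lines part the 3 array sets, and HEK ctrl and HEK Norrin are control and Norrin-expressing HEK293 cells. In the single cultures to the left, replicate 1 lies below the mean of the other replicates in 24 of 24 cases.

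With Norrin-expressing HEK293 cells, 4 of the 6 chemokines fell in wild type cells: Ccl2, Ccl8, Ccl7 and Ccl5, by 2.78 to 3.83-fold (limma, 3 arrays a group). Over all genes, 5.39% were called higher and 4.18% lower in this comparison. In Fz4-/- cells 2 fell, Ccl7 and Cx3cl1, against 0.214% of all genes called higher and 0.242% lower. The median difference over the 6 was -1.50 log2 in wild type and -0.38 in Fz4-/-, and over all genes -0.02 in both. The response differed between genotypes for Ccl2, Ccl5 and Ccl8, each higher by 1.41 to 1.63 log2 in Fz4-/- than in wild type. Of all genes, 0.874% had a response called higher in Fz4-/- and 1.24% lower. With all 24 arrays in 1 fit, whose spread includes the single cultures, Ccl2 and Ccl8 passed in wild type, no member passed in Fz4-/-, and none of the 3 differences between the responses did. In Fz4-/- 44 of all genes passed in that fit. For the other comparisons the share of all genes in that fit is not given here, so those calls are description only. RNA of a whole culture cannot tell fewer cells of a type from less RNA per cell. Whether arrays of 2 groups overlap is given below as description only, since the share of all genes without overlap was not counted.

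Ccl2, the main monocyte attractant of the family, read 8.14, 8.62 and 8.56 log2 in the 3 wild type cultures with control cells and 6.66, 6.60 and 6.25 with Norrin-expressing cells. The groups are apart by more than 1 log2 unit. The difference was -1.94 ± 0.14 (SE, adjusted p = 4.89e-08). In Fz4-/- co-cultures Ccl2 read 10.04, 9.82 and 10.02 with control cells and 9.36, 9.47 and 9.45 with Norrin-expressing cells. These groups do not overlap either, and the difference of -0.53 ± 0.14 did not pass the test over all genes (adjusted p = 0.129). It passed in 1 of 18 alternative fits, with only the arrays compared in the fit (adjusted p = 0.0277), where 162 of all genes passed. The response was larger in wild type, by 1.41 ± 0.19 (adjusted p = 0.00043).

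Ccl7, a monocyte attractant encoded beside Ccl2, took a different course. It read 4.21, 4.13 and 4.41 log2 in wild type cells with control HEK293 and 2.98, 2.43 and 2.72 with Norrin-expressing HEK293. In Fz4-/- cells the values were 5.12, 4.86 and 5.01 against 3.64, 3.25 and 3.44. Every array with Norrin-expressing cells was below every control array of its genotype. Ccl7 fell by 1.54 ± 0.14 log2 in wild type (SE, adjusted p = 9.54e-07) and by 1.55 ± 0.14 in Fz4-/- (adjusted p = 8.59e-06). The difference between the responses was -0.01 ± 0.20, with a 95% interval from -0.43 to 0.40. With Norrin-expressing cells Ccl7 lay at percentile 18.2 of all genes in wild type and 38.7 in Fz4-/-. The 5th percentile of the wild type co-culture arrays was 2.10 to 2.12 log2. Whether the probe set could read lower there was not tested, which limits the comparison of the responses.

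Ccl8 is encoded near Ccl2 and Ccl7. In wild type cells it read 6.90, 6.01 and 5.99 log2 with control HEK293 and 4.64, 4.36 and 4.47 with Norrin-expressing HEK293. All 3 Norrin arrays were lower than all 3 controls. The difference was -1.81 ± 0.19 (SE, adjusted p = 4.86e-06). In Fz4-/- co-cultures Ccl8 read 3.41, 3.38 and 3.15 against 3.39, 3.15 and 2.87, which overlap, with a difference of -0.18 ± 0.19 (adjusted p = 0.876). The responses differed by 1.63 ± 0.27 (adjusted p = 0.00228), and by 1.78 with replicates 2 and 3 averaged into 1 (adjusted p = 0.0512), where 0.495% of all genes passed. Ccl8 in the Fz4-/- co-cultures lay near the arrays' median of 3.21 to 3.31, and whether the probe set could read lower there was not tested.

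Ccl5, which attracts T cells, read 8.05, 8.11 and 8.25 log2 in wild type cells with control HEK293 and 6.45, 6.83 and 6.70 with Norrin-expressing HEK293, again with no overlap. The difference was -1.47 ± 0.11 (SE, adjusted p = 8.37e-08). In Fz4-/- co-cultures all 6 arrays lay between 6.85 and 6.93. The difference there was -0.03 ± 0.11 (adjusted p = 0.968), with a 95% interval from -0.26 to 0.20. The response differed between the genotypes by 1.44 ± 0.16 (adjusted p = 5.63e-05).

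Ccl20, the ligand of Ccr6, read 3.46, 3.54 and 3.68 log2 in wild type cells with control HEK293 and 3.62, 3.29 and 3.31 with Norrin-expressing HEK293, and the groups overlap. The difference was -0.15 ± 0.11 (adjusted p = 0.488, 95% interval -0.39 to 0.08). In Fz4-/- cells it read 3.22, 3.29 and 3.14 against 3.02, 2.94 and 2.99. Those groups do not overlap, and the difference of -0.24 ± 0.11 did not pass (adjusted p = 0.578). Nor did the difference between the responses, -0.08 ± 0.16 (95% interval -0.41 to 0.25).

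Cx3cl1, read at the probe set with the highest mean, stood at 6.91, 7.26 and 6.99 log2 in wild type cells with control HEK293 and at 5.82, 6.73 and 6.70 with Norrin-expressing HEK293. Replicate 1 of the latter group was the lowest. The difference of -0.63 ± 0.20 (SE) missed the threshold (adjusted p = 0.0503), and passed with the replicate number as a block (adjusted p = 0.0293). With that block, 6.18% of all genes were called higher and 4.9% lower in wild type. Over 18 alternative fits the wild type difference ran from -0.79 to -0.26 and passed in 6. Without replicate 1 in every group it was -0.41 ± 0.17 and did not pass (adjusted p = 0.156), where 11.1% of all genes did. In Fz4-/- co-cultures Cx3cl1 read 6.23, 6.36 and 6.25 against 5.03, 4.54 and 5.12, and fell by 1.39 ± 0.20 (adjusted p = 0.0015). That call was lost when replicates 2 and 3 were averaged into 1 (-1.34, adjusted p = 0.0851), where 0.055% of all genes passed. The responses differed by -0.75 ± 0.28 (adjusted p = 0.233, 95% interval -1.34 to -0.16). Without replicate 1 of the wild type cultures with Norrin-expressing cells this difference passed, at -1.05 (adjusted p = 0.00899).

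The other Cx3cl1 probe sets moved less. In a fit with each probe set on its own, the main probe set (1415803_at) gave -1.39 log2 in Fz4-/- (adjusted p = 0.00571). The next (1415804_at) gave -0.53 ± 0.17 (adjusted p = 0.37) and both remaining ones -0.20. In wild type the 4 gave -0.63, -0.17, -0.01 and -0.23, and none passed. On 1415804_at the Fz4-/- arrays read 6.20, 6.22 and 5.96 with control cells and 5.84, 5.44 and 5.52 with Norrin-expressing cells, with no overlap. The fall in Fz4-/- thus passed on 1 of the 4 probe sets, and the other 3 had the same sign. In those cultures 1421610_at had means of 2.97 and 2.78 and 1441884_x_at of 2.55 and 2.35. These lie below the arrays' median of 3.21 to 3.31, and whether these probe sets could read lower was not tested.

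**Figure D2:**
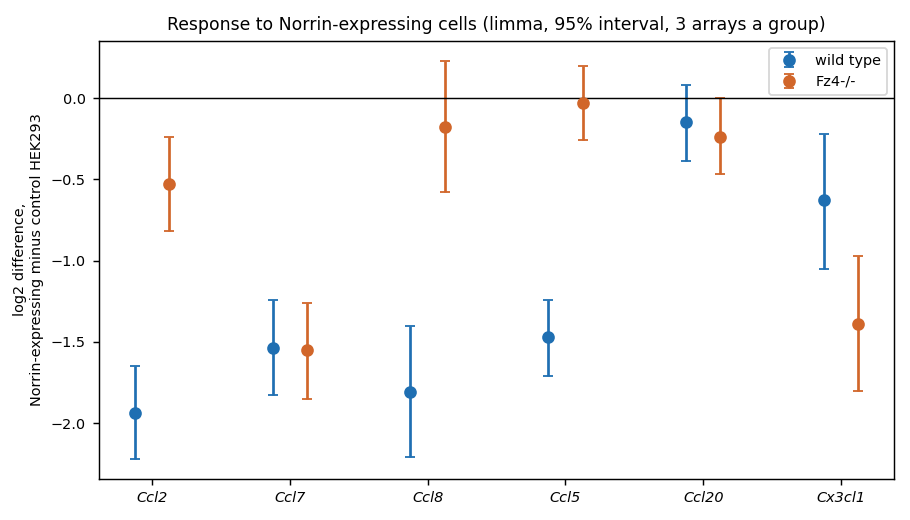
Log2 difference between cultures with Norrin-expressing and with control HEK293 cells for the 6 chemokines in wild type (blue) and Fz4-/- (orange) cells; points are limma estimates from 3 arrays a group and bars their 95% intervals. The intervals of Ccl2, Ccl8 and Ccl5 lie apart between genotypes, those of Ccl7 nearly coincide at -1.54 and -1.55, and Ccl20 lies at -0.15 and -0.24.

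**Figure D3:**
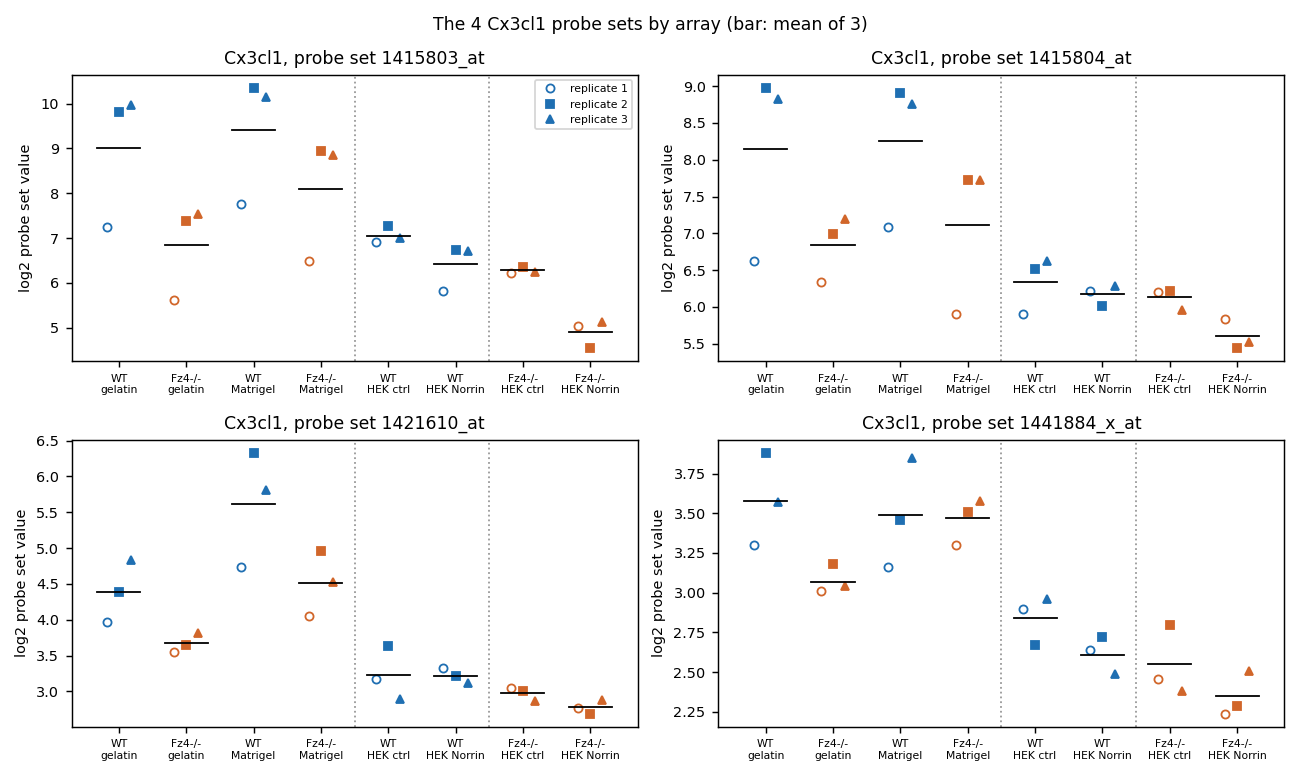
Log2 values of the 4 Cx3cl1 probe sets on each array, one panel a probe set, with groups, symbols, mean bars and dotted lines as in the plot of all chemokines. In Fz4-/- cells the difference with Norrin-expressing HEK293 is -1.39 log2 on 1415803_at and -0.53 log2 on 1415804_at.

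The chemokines of the other classes were read from a list of 15 CXC and C genes. In wild type cells with Norrin-expressing HEK293, 8 of the 15 fell and none rose, with a median of -0.39 log2 against -0.02 over all genes. The neutrophil attractants Cxcl5, Cxcl2 and Cxcl1 fell, with differences of -4.76 ± 0.12, -4.42 ± 0.14 and -3.70 ± 0.10 log2 (SE), and Pf4, platelet factor 4, had -1.19 ± 0.13. In Fz4-/- cells 5 of 15 fell, with Cxcl5 at -4.47, Cxcl2 at -2.56, Cxcl1 at -2.55 and Cxcl3 at -1.23. The responses of Cxcl2 and Cxcl1 differed between genotypes by 1.86 ± 0.19 (adjusted p = 4.3e-05) and 1.15 ± 0.15 (adjusted p = 0.000221). None of the 13 other CC chemokines measured passed in either genotype, with medians of -0.06 and -0.10 log2 (limma; 0 in wild type and 1 in Fz4-/- at an unadjusted p under 0.05).

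The measured receptors listed for the members, Ccr1, Ccr2, Ccr3, Ccr6 and Cx3cr1, did not pass in the same cultures. By limma 0 of 5 passed in wild type and 0 of 5 in Fz4-/- (0 and 1 at an unadjusted p under 0.05). Of 12 other chemokine receptors measured, Cxcr4 alone passed in wild type, lower at -0.64 ± 0.15 log2 (SE, adjusted p = 0.0111). None of the 12 passed in Fz4-/-, and Ccr8, on that list, passed in neither genotype. The wild type means of Cxcr4 were 2.57 with control and 1.92 with Norrin-expressing cells, below the arrays' median of 3.44 to 3.52. The scavenging receptor Ackr3, which removes Cxcl12, rose in wild type by 2.02 ± 0.12 log2 (adjusted p = 4.64e-09), and its response was lower in Fz4-/- by -2.12 ± 0.17. Of 12 genes that shed, cleave or anchor chemokines, only the heparan sulfate carrier Sdc2 passed in wild type, at 0.38 ± 0.12. In limma 5 of the 12 had an unadjusted p under 0.05. Adam10 and Adam17, which shed Cx3cl1, are among the 11 that did not pass. Adam10 missed the threshold at 0.38 ± 0.12 (adjusted p = 0.062), and Adam17 had 0.18 ± 0.13 (adjusted p = 0.496).

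Among 10 feedback genes of the NF-kB pathway, 7 fell in wild type cells with Norrin-expressing HEK293 and 3 did not pass, with a list median of -0.66 log2. Nfkbiz, an atypical inhibitor of the pathway, stood at -1.73 ± 0.13 (SE), Tnfaip3, which encodes the A20 enzyme, at -1.05 ± 0.15, Bcl3 at -0.79 and the inhibitor Nfkbia at -0.71. In Fz4-/- cells 2 of 10 fell, Nfkbiz (-1.07 ± 0.13) and Tnip1 (-0.61 ± 0.12). None of the 10 passed limma's test for the difference between the responses (6 had an unadjusted p under 0.05). Of 11 subunits and kinases of the pathway, 3 fell in wild type: the kinase Ikbke (-1.61 ± 0.14), Relb (-0.94 ± 0.17) and Nfkb2 (-0.55 ± 0.10). Only Ikbke fell in Fz4-/-, by 0.80 ± 0.14, and its response differed by 0.81 ± 0.19 (adjusted p = 0.0338). Of 17 inducing cytokines and receptors, Tlr2 fell in wild type by 1.02 ± 0.14 and Il6st rose by 0.51 ± 0.14. In Fz4-/- Tlr3, a sensor of double-stranded RNA, rose by 0.60 ± 0.11 (adjusted p = 0.0108). Of 11 interferon regulators, the receptor chain Ifnar2 fell by 1.00 ± 0.11 in wild type, and no regulator passed in Fz4-/- (3 at an unadjusted p under 0.05). Without some single array, Il6st, Cxcr4 and Sdc2 in wild type, Ikbke, Tlr3 and Tnip1 in Fz4-/-, and Ikbke for the difference between the responses, did not pass.

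Markers of cell types moved in the same wild type co-cultures. Of 10 endothelial markers 9 rose with Norrin-expressing HEK293, with a median of 0.78 log2, and the array mean over the list went from between 6.61 and 6.93 to between 7.34 and 7.73. In Fz4-/- none of the 10 passed (3 at an unadjusted p under 0.05), with array means of 7.66 to 7.79 and 7.81 to 7.98. Of 8 macrophage and microglia markers only Cd68 passed, lower in wild type by -2.29 log2, and the list's array means were 3.78 to 3.89 and 3.45 to 3.60. Of 6 fibroblast markers, Dcn was lower by -2.91 and Col1a2 higher by 0.80 in wild type, with array means of 5.20 to 5.37 and 4.79 to 5.06. Of 8 pericyte and smooth muscle markers only Acta2, smooth muscle actin, passed in wild type, higher by 0.90 ± 0.12 (adjusted p = 8.75e-05), with array means of 3.96 to 4.02 and 4.02 to 4.16. None of the 8 passed in Fz4-/- (0 at an unadjusted p under 0.05 in limma), and the response of Acta2 was lower there by -0.91 ± 0.17 (adjusted p = 0.00739). None of 7 retinal glia and neuron markers passed in either genotype (1 in each at an unadjusted p under 0.05), with array means of 4.64 to 4.78 and 4.71 to 4.74 in wild type. The part of these shifts in the chemokine values was not tested.

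Between genotypes in co-culture only levels can be given. With control HEK293 cells the means in wild type and Fz4-/- were 8.44 ± 0.27 (SD, n = 3) and 9.96 ± 0.12 log2 for Ccl2, 4.25 ± 0.14 and 5.0 ± 0.13 for Ccl7, and 6.30 ± 0.52 and 3.31 ± 0.14 for Ccl8. They were 8.13 ± 0.10 and 6.90 ± 0.04 for Ccl5, 3.56 ± 0.11 and 3.22 ± 0.08 for Ccl20, and 7.05 ± 0.18 and 6.28 ± 0.07 for Cx3cl1. These values carry the difference between the array sets.

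In cells grown alone, the chemokines differed strongly between replicate numbers. Replicate 1 lay below the mean of replicates 2 and 3 for every member in every one of the 4 single-culture groups, 24 of 24 cases, by 0.19 to 2.64 log2. For Cx3cl1 on gelatin the gap was 2.64 in wild type and 1.84 in Fz4-/-, and for Ccl7 it was 2.60 and 2.08. The median gap of all genes in these groups lay between -0.03 and -0.01. Among all genes, the gap of Cx3cl1 on wild type gelatin was at percentile 99.9, and the smallest, Ccl20 in Fz4-/- on Matrigel, was at percentile 81.1. CXC and C chemokines had a median gap of 0.70 on wild type gelatin (15 of 15 higher in replicates 2 and 3) and interferon regulators one of 0.43 (9 of 11). Endothelial markers had a median gap of 0.01 there (5 of 10) and macrophage markers one of 0.02 (4 of 8). The labels do not say what a replicate number stands for.

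On gelatin none of the 6 chemokines passed limma's test between genotypes without regard to replicate number (3 had an unadjusted p under 0.05), against 7.21% of all genes called higher and 7.73% lower in Fz4-/-. Equal replicate numbers deviated together over all genes in both genotypes. The equal number was the best match in 4 of 6 cases, so the block rests on a pairing that these data do not establish. With the number as a block, 4 of the 6 passed: Ccl5, Cx3cl1 and Ccl20 were lower and Ccl7 higher in Fz4-/-. Of all genes, 11.3% were then called higher and 11.4% lower. Without replicate 1 in every group, 5 of 6 passed, Ccl8 being the addition, and 4911 of all genes (27.0%) did. With replicates 2 and 3 averaged into 1, no member and 667 genes (3.67%) passed.

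On Matrigel the counts were again 0 of 6 without the block (1 at an unadjusted p under 0.05) and 4 of 6 with it. Of all genes, 6.91% were called higher and 8.77% lower without the block and 11.1% and 13% with it. Ccl5 and Cx3cl1 were lower and Ccl7 and Ccl2 higher in Fz4-/-. Without replicate 1 in every group 5 of 6 members and 4857 genes (26.7%) passed, and with replicates 2 and 3 averaged no member and 736 genes (4.05%) did.

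Ccl5 on gelatin read 9.64, 12.07 and 12.20 log2 in wild type and 8.25, 9.37 and 9.40 in Fz4-/-, for replicates 1 to 3. Every wild type array was above every Fz4-/- array, and within a replicate number the difference was -1.39, -2.69 and -2.80. The mean difference was -2.29 ± 0.76 (SE, adjusted p = 0.0652), and with the block -2.29 ± 0.29 (adjusted p = 0.000317). On Matrigel the values were 9.64, 12.09 and 12.08 in wild type and 8.18, 9.38 and 9.24 in Fz4-/-, again with no overlap. The difference was -2.33 ± 0.76 (adjusted p = 0.0581), and with the block -2.33 ± 0.29 (adjusted p = 0.000273). Leaving out replicate 1 of the wild type alone was enough to pass, at -3.12 on gelatin (adjusted p = 0.0111) and -3.15 on Matrigel (adjusted p = 0.011). Leaving out any other single array was not. Ccl5 passed in 4 of 18 alternative fits on gelatin and 5 of 18 on Matrigel.

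Cx3cl1 on gelatin read 7.25, 9.81 and 9.96 log2 in wild type and 5.62, 7.38 and 7.54 in Fz4-/-, so that the groups overlap through replicate 1. Within a number the differences were -1.62, -2.43 and -2.42. They gave -2.16 ± 0.93 without the block (SE, adjusted p = 0.162) and -2.16 ± 0.15 with it (adjusted p = 6.01e-06). Without wild type replicate 1 on gelatin it passed at -3.04 (adjusted p = 0.0483). It did not pass there without any other single array, and passed in 4 of 18 alternative fits. On Matrigel it read 7.75, 10.36 and 10.15 in wild type and 6.48, 8.95 and 8.86 in Fz4-/-. The difference there was -1.33 ± 0.93 (adjusted p = 0.41), and -1.33 ± 0.15 with the block (adjusted p = 0.000174). In the fit by probe set, without the block, no Cx3cl1 probe set passed. On gelatin 1415804_at gave -1.30, 1421610_at -0.73 and 1441884_x_at -0.51, and on Matrigel they gave -1.13, -1.11 and -0.02.

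Ccl7 and Ccl2 had higher means in Fz4-/- than in wild type on both substrates. On gelatin Ccl7 read 6.58, 9.16 and 9.21 log2 in wild type and 7.75, 9.85 and 9.81 in Fz4-/-, higher in 3 of 3 numbers, by 0.82 ± 0.93 (SE, adjusted p = 0.661) and with the block by 0.82 ± 0.13 (adjusted p = 0.00146). On Matrigel it read 6.26, 8.80 and 8.97 in wild type and 7.90, 10.08 and 9.96 in Fz4-/-. That difference was 1.30 ± 0.93 (adjusted p = 0.419), and 1.30 ± 0.13 with the block (adjusted p = 6.68e-05).

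Ccl2 on gelatin read 12.20, 13.10 and 13.10 log2 in wild type and 12.38, 13.22 and 13.23 in Fz4-/-. The difference of 0.15 ± 0.34 did not pass (adjusted p = 0.855), nor with the block (adjusted p = 0.315). On Matrigel it read 11.91, 12.96 and 12.84 in wild type and 12.71, 13.33 and 13.24 in Fz4-/-. The difference of 0.53 ± 0.34 (adjusted p = 0.355) passed with the block, at 0.53 ± 0.09 (adjusted p = 0.002). Its sign matches that of Ccl7, and the pair had a correlation of 0.98 over the 12 single-culture arrays, which share the replicate pattern.

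Ccl20 on gelatin read 5.90, 7.38 and 7.40 log2 in wild type and 5.31, 5.90 and 5.90 in Fz4-/-, so that the lowest wild type array met the highest Fz4-/- arrays. The difference of -1.19 ± 0.37 (SE, adjusted p = 0.0525) passed with the block (adjusted p = 0.00441) and without wild type replicate 1 (-1.69, adjusted p = 0.00211). It did not pass without any other single array, and passed in 4 of 17 alternative fits. On Matrigel it read 5.14, 5.96 and 5.86 in wild type and 5.26, 5.13 and 5.79 in Fz4-/-, with a difference of -0.26 ± 0.37 (adjusted p = 0.73).

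Ccl8 had no common sign. On gelatin it read 4.29, 6.35 and 6.01 log2 in wild type and 4.52, 5.27 and 4.94 in Fz4-/-, a difference of 0.24 for number 1 and -1.08 for both others. The mean differences of -0.64 ± 0.55 on gelatin (adjusted p = 0.529) and -0.45 ± 0.55 on Matrigel (adjusted p = 0.667) did not pass, nor with the block (adjusted p = 0.19 and 0.36). On Matrigel it read 4.43, 6.06 and 6.44 in wild type and 4.92, 5.44 and 5.20 in Fz4-/-.

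**Figure D4:**
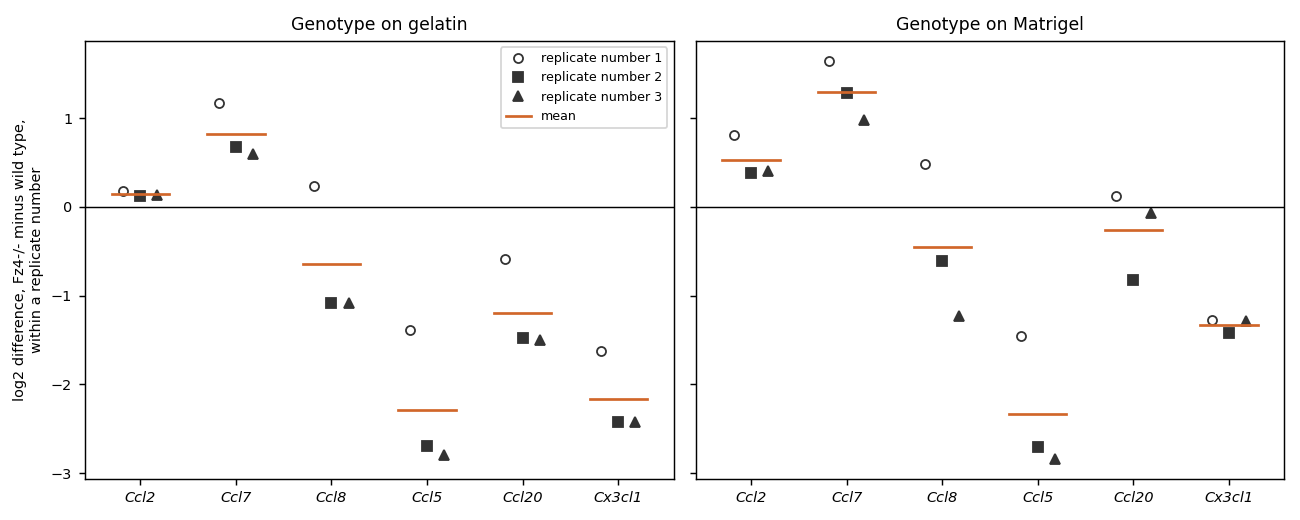
Log2 difference between Fz4-/- and wild type arrays of the same replicate number (symbols; open circles, number 1) for the 6 chemokines on gelatin and on Matrigel, with their mean as a bar. Ccl5 and Cx3cl1 lie below 0 and Ccl7 above 0 for 3 of 3 numbers on both substrates, and Ccl8 lies on both sides of 0.

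Cells on Matrigel had also been starved and replated, so the substrate and that treatment cannot be told apart in any comparison of Matrigel with gelatin. Between the 2 cultures, 1 member of 6 passed in wild type and none in Fz4-/- (limma, 0 of 6 there at an unadjusted p under 0.05), against 6.71% of all genes called higher and 11.7% lower in wild type and 7.91% and 11.8% in Fz4-/-. With the replicate number as a block, Ccl20 again passed in wild type and Cx3cl1 in Fz4-/-. Of all genes, 9.95% were then called higher and 16.4% lower in wild type, and 11.3% and 16.9% in Fz4-/-. Ccl20 was lower on Matrigel in wild type, 5.14 to 5.96 log2 against 5.90 to 7.40 on gelatin, which overlap. The difference was -1.24 ± 0.37 (SE, adjusted p = 0.0385), and within the numbers -0.76, -1.43 and -1.55. It did not pass without any 1 of 5 of the 6 arrays compared: without Matrigel replicate 1, 2 or 3 the adjusted p was 0.121, 0.0581 and 0.067, and without gelatin replicate 2 or 3 it was 0.133 and 0.135. In Fz4-/- Ccl20 differed by -0.31 ± 0.37 (adjusted p = 0.612).

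Cx3cl1 in Fz4-/- was higher on Matrigel by 0.86, 1.56 and 1.32 log2 within the 3 numbers. That gave 1.25 ± 0.93 (SE, adjusted p = 0.385) and 1.25 ± 0.15 with the block (adjusted p = 0.000487). In wild type the same probe set differed by 0.41 ± 0.93 (adjusted p = 0.806), and another, 1421610_at, rose by 1.23 ± 0.36 in the fit by probe set (adjusted p = 0.0352). The others did not pass there, with 1415804_at at 0.11 and 1441884_x_at at -0.09. In Fz4-/- 1415804_at gave 0.28, 1421610_at 0.85 and 1441884_x_at 0.39 in that fit, and none passed. Ccl2, Ccl5, Ccl7 and Ccl8 differed by -0.31 to 0.28 between substrates in either genotype, and none passed. No member's difference between Matrigel and gelatin was called different between genotypes by limma (0 of 6 at an unadjusted p under 0.05), and 3 of all genes were (0.0055% higher and 0.011% lower). Without replicate 1 in every group, the difference of Cx3cl1 was larger in Fz4-/- by 1.07 ± 0.14 (adjusted p = 0.0443; 0.335% of all genes passed). In wild type Ccl7 (-0.30) and Cx3cl1 (0.37) then passed as well (adjusted p = 0.031 and 0.0314), with 28.0% of all genes.

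Across the genes around them, 4 of 11 interferon regulators passed between genotypes on gelatin, all lower in Fz4-/-: the RNA sensors Ifih1 by -2.06 ± 0.35 log2 (SE) and Ddx58 by -0.81 ± 0.10, and the transcription factors Stat2 by -1.90 ± 0.52 and Irf9 by -1.29 ± 0.27. On Matrigel 4 of 11 were lower too, with Ifih1 at -1.95 and Stat2 at -1.89. Of 13 other CC chemokines, Ccl4 (-1.77 ± 0.48) and Ccl27a (-0.56 ± 0.14) were lower on gelatin, and Ccl27a (-0.46) on Matrigel. Of 15 CXC and C chemokines, Cxcl10, an interferon-induced T cell attractant, was lower by -4.09 ± 0.89 on gelatin and -3.92 ± 0.89 on Matrigel. Cxcl3 (-2.89) was also lower and Pf4 (1.45) higher on gelatin, and Cxcl11 (-2.56) and Cxcl12 (-1.18) lower on Matrigel. None of the 5 measured receptors listed for the members passed between genotypes on either substrate, nor had an unadjusted p under 0.05 in limma. Among inducing cytokines and receptors, Tlr3 was lower by -2.0 on gelatin and -1.42 on Matrigel, with 3 of 17 lower and 2 higher on gelatin and 2 lower and 3 higher on Matrigel. Without some single array, Ccl4, Ccl27a, Cxcl3, Pf4 and Stat2 on gelatin, and Ccl27a, Cxcl10, Cxcl11 and Stat2 on Matrigel, did not pass. Of 10 endothelial markers 4 were higher and none lower in Fz4-/- on each substrate, with array means of 10.51 to 10.56 in wild type and 10.77 to 10.82 in Fz4-/- on gelatin. Of 6 fibroblast markers 2 were lower and none higher in Fz4-/- on each substrate, and of 8 macrophage markers none passed. Of 8 pericyte and smooth muscle markers Acta2 alone passed on gelatin, higher in Fz4-/- by 1.28 ± 0.18 (adjusted p = 0.000498), and none on Matrigel (2 at an unadjusted p under 0.05 in limma). Of 7 retinal glia and neuron markers the neuronal tubulin Tubb3 alone passed, lower by -1.07 ± 0.19 on gelatin (adjusted p = 0.00247) and -1.40 ± 0.19 on Matrigel (adjusted p = 0.000392). Their part in the chemokine values was not tested.

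The receptor Cxcr4, which binds Cxcl12, was higher on Matrigel than on gelatin in both genotypes, by 2.11 ± 0.23 log2 in wild type (SE, adjusted p = 0.000262) and 1.93 ± 0.23 in Fz4-/- (adjusted p = 0.000345). Cxcl12 itself was lower by -0.88 ± 0.19 and -1.66 ± 0.19. Among the receptors listed for the members, Cx3cr1 was lower in wild type (-0.35 ± 0.09) and Ccr1 in Fz4-/- (-0.31 ± 0.09), each 1 of 5 measured. Their means were low, 4.0 on gelatin and 3.65 on Matrigel for Cx3cr1 and 3.38 and 3.07 for Ccr1. The median of these arrays was 5.02 to 5.11. Of 10 NF-kB feedback genes, Nfkbie rose (0.54 ± 0.15) and Tnfaip3 fell (-1.19 ± 0.34) in wild type, and 4 rose and 1 fell in Fz4-/-. Without some single array, Cx3cr1, Nfkbie and Tnfaip3 in wild type and Ccr1 in Fz4-/- did not pass. Among markers of cell types, 2 of 10 endothelial markers were higher on Matrigel in each genotype, with Tek at 0.80 ± 0.12 and 0.98 ± 0.12, and of 6 fibroblast markers Col1a1 was higher in both. Of 8 pericyte and smooth muscle markers, 2 were lower in wild type and 1 in Fz4-/-, with Acta2 at -0.93 ± 0.18 and -1.80 ± 0.18. Of 8 macrophage and microglia markers, Cx3cr1 was lower in wild type and Adgre1 higher in Fz4-/- (0.46 ± 0.13). Of 7 retinal glia and neuron markers, Tubb3 was lower in both genotypes (-0.65 and -0.98) and Gfap higher in wild type (0.48). The part of these markers in the chemokine values was not tested. Col1a1, Adgre1 and Gfap had means of 3.36 to 4.61 log2 in the single-culture groups, also below the arrays' median.

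The order of the single-culture groups differed between members. Ccl2 and Ccl7 had their highest means in Fz4-/- on Matrigel (13.10 and 9.31 log2) and their lowest in wild type on Matrigel (12.57 and 8.01), and no neighbours in that order were apart. Ccl5 ran from wild type on gelatin (11.30) and Matrigel (11.27) to Fz4-/- on gelatin (9.01) and Matrigel (8.93), with a gap between the genotypes. Cx3cl1 was highest in wild type on Matrigel (9.42) and lowest in Fz4-/- on gelatin (6.85), with overlap between all neighbours, and so was Ccl8 (5.64 and 4.91). Ccl20 had its highest mean in wild type on gelatin (6.90) and the lowest in Fz4-/- on Matrigel (5.39).

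The genes most like each member were found among 9096 genes with a mean above the median, by the correlation over all 24 arrays after each array set was centred. They were Lcn2 for Ccl2 (0.961), C1ra for Ccl5 (0.970), Plcb3 for Ccl7 (0.918), Npc2 for Ccl8 (0.848), Trim26 for Ccl20 (0.832) and Znrf1 for Cx3cl1 (0.941). Next came Sod2 (0.948), Car13 (0.969), Stk38l (0.918), Uap1l1 (0.847), Usb1 (0.822) and Casp4 (0.931), and then Ifnar2 (0.923), Slc25a42 (0.964), Ikbke (0.917), Agap3 (0.846), Il1rap (0.816) and Irf1 (0.925). These arrays share groups and replicate numbers, and the likeness holds both. Over the 12 co-cultures alone, without centring, Ikbke had 0.910 with Ccl7 and Npc2 0.960 with Ccl8, while Lcn2 had 0.165 with Ccl2 and Trim26 0.001 with Ccl20. Those arrays span the array sets of both genotypes, so these values also carry the difference between the sets. Among the members, Ccl5 and Cx3cl1 correlated at 0.90 over the single cultures and 0.84 over all 24 centred arrays, and Ccl2 and Ccl7 at 0.98 and 0.81.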

How the data were processed

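Total RNA was hybridised to Affymetrix mouse arrays. The values deposited by the authors are log2 intensities per probe set, from RMA per the submitters' processing notes (no version named). Of 45101 probe sets, 64 controls were left out, 34945 had 1 gene symbol, 932 several and 9160 none. RefSeq gene IDs (GRCm38.p6) matched 34741. Each of 18193 genes was read at its probe set with the highest mean. No counts exist, so the number of arrays limits the precision.

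Group means were fitted with limma 3.58.1 (R 4.3.3, data.table version 1.17.8) in 2 fits, 1 for the 12 arrays of cells grown alone and 1 for the 12 co-cultures. Adjusted p is Benjamini-Hochberg over all genes, with a threshold of 0.05. With 3 arrays against 3, no exact permutation test of a single gene was run. The fit was tested on simulated data. Figures used matplotlib 3.10.9, and tables pandas 2.3.3 and numpy 2.4.6 under Python 3.11.15.

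Whether equal replicate numbers pair arrays was judged from the correlation, over genes, of their deviations from the group means. It ranged from 0.24 to 0.72 in the single cultures and 0.10 to 0.36 for Norrin in wild type, which were taken as paired from the data alone, and from -0.19 to 0.01 for Norrin in Fz4-/-, which were not. An equal number gave the best match in 4 of 6 cases for genotype on gelatin and 5 of 6 on Matrigel. For Matrigel it did so in 2 of 6 in wild type and 3 of 6 in Fz4-/-, and for Norrin in wild type in 4 of 6. Alternatives changed the normalization, probe set, filter, arrays in the fit, variance model and block, and left out each array.

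The members, gene lists and tests were chosen with earlier results of these data known. Named genes are the members, the 3 genes most like each, up to 4 genes a list past the threshold with the largest differences, and markers.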

Additional observations from a re-analysis of the deposited data

Results flagged for a closer look

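The response to Norrin-expressing HEK293 cells differed between genotypes for 3 members in the interaction of the limma fit. The fall was smaller in Fz4-/- by 1.41 log2 for Ccl2, 1.44 for Ccl5 and 1.63 for Ccl8. The fitted differences in wild type and Fz4-/- were -1.94 and -0.53 for Ccl2, -1.47 and -0.03 for Ccl5, and -1.81 and -0.18 for Ccl8. In wild type the arrays with Norrin-expressing and with control cells did not overlap for any of the 3. In Fz4-/- they overlapped for Ccl5 and Ccl8 and not for Ccl2. The share of all genes without overlap was not counted, so overlap is description only. The co-culture arrays of the 2 genotypes fall into separate sets by their distribution. A difference between the sets in how far a value can move was not tested.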

How the results depend on the processing

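Over the alternatives run for the 6 members, 805 of 908 values kept their direction and side of the threshold, 16 lost the call, 41 gained it and 46 changed sign. Of 2045 values for the other named genes, 1621 kept both, 421 lost the call and 3 changed sign. The cause of these changes was not tested. Where a count of members below has no count of all genes beside it, it is description only. With any single array left out, 14 of 17 named genes of the lists kept the call for Norrin-expressing cells in wild type, 5 of 8 in Fz4-/-, 9 of 24 for genotype on gelatin, 10 of 21 on Matrigel, 6 of 18 for Matrigel in wild type and 12 of 21 in Fz4-/-.

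For genotype on gelatin, 0 members and 2719 genes were called. The replicate block gave 4 members and 4138 genes, all 24 arrays in 1 fit gave 3 members, and replicates 2 and 3 averaged gave 667 genes. Arrays left out gave 0 to 5 members and 1796 to 4911 genes, with Ccl2 from -0.15 to 0.43 and Ccl7 from -0.05 to 1.51 log2. For genotype on Matrigel, 0 members and 2854 genes were called. The block gave 4 and 4379, all 24 arrays 1 member, genes above the median level 1 member, averaged replicates 736 genes, and arrays left out 0 to 5 members and 1903 to 4857 genes. The highest counts came without replicate 1 of every group.

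For Matrigel in wild type, 1 member and 3356 genes were called. Genes above the median level gave 0 and 1253, only the arrays compared 0 members, and averaged replicates 0 and 574. Quantile normalization gave Ccl5 0.10, and probe sets without suffixes gave the receptor Cxcr6 0.17. Arrays left out gave 0 to 3 members and 2137 to 5088 genes, with Ccl2 from -0.53 to 0.10, Ccl5 from -0.87 to 0.78, Ccl7 from -1.18 to 0.57, Ccl8 from -0.54 to 0.70 and Cx3cl1 from -0.47 to 1.25. For Matrigel in Fz4-/-, 0 members and 3592 genes were called. The block gave 1 member, genes above the median level 1641 genes and averaged replicates 712. Quantile normalization gave Ccl5 0.01, and Cxcl14 had -0.14 as the mean of its probe sets and -0.75 without suffixes. Arrays left out gave 0 to 1 members and 2335 to 5498 genes, with Ccl2 from -0.13 to 0.34, Ccl5 from -0.46 to 0.30 and Ccl7 from -0.51 to 0.88. For the difference between the Matrigel responses, 0 members and 3 genes were called. The mean of probe sets gave 5 genes, all 24 arrays 16, the block 8 and averaged replicates 0. Arrays left out gave 0 to 1 members and 2 to 61 genes, with Ccl5 from -0.85 to 0.79, Ccl7 from -0.39 to 1.36, Ccl8 from -0.41 to 0.82 and Cx3cl1 from 0.00 to 1.71.

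For Norrin-expressing cells in wild type, 4 members and 1741 genes were called. All 24 arrays in 1 fit gave 2 members, only the arrays compared 761 genes, averaged replicates 691, and arrays left out 4 to 5 members and 1266 to 2161 genes. In Fz4-/-, 2 members and 83 genes were called. All 24 arrays gave 0 and 44, averaged replicates 1 and 10, probe sets without suffixes 52 genes and only the arrays compared 162. Median centring gave Ccl5 0.01, and arrays left out gave 2 members and 36 to 118 genes. For the difference between the responses, 3 members and 385 genes were called. All 24 arrays gave 0 members, where Ccl2 had an adjusted p of 0.0586, Ccl5 0.523 and Ccl8 0.222, and averaged replicates 90 genes. Quantile normalization gave Ccl7 0.04. Arrays left out gave 3 to 4 members and 232 to 562 genes, with Ccl7 from -0.16 to 0.12 and Ccl20 from -0.14 to 0.05. The fit of all 24 arrays takes its spread from the single cultures too, where replicate 1 stands apart. The replicate block for the Fz4-/- co-cultures and for the differences between responses changed no call of a member.

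Over the 12 co-cultures alone, without centring, 4 correlations changed sign: Ccl2 with Sod2 (-0.061) and Ifnar2 (-0.266), Ccl7 with Stk38l (-0.128) and Ccl20 with Il1rap (-0.704). These values also carry the difference between the array sets of the genotypes. The deposited values carry no detection call, so how far a low probe set can fall is not known.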
